A study of Homo sapiens with 12 samples.

Results

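WNT signalling genes were followed in a pair of human lung squamous cell carcinoma (LUSC) lines, LK-2 and RERF-LC-AI, with and without forced expression of maspin, a serpin family protein encoded by SERPINB5. The members are 45 of the 38434 genes that carry a symbol in the deposited count tables. They were chosen by name, with earlier results of these data known, and not by a cutoff on a measured value. The list comprises 13 WNT ligands, 14 receptors and co-receptors, 10 antagonists including the ligases RNF43 and ZNRF3, and 8 intracellular effectors and targets. RNA-seq had been run on 12 libraries in 4 groups of 3.

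LK2-ctrl and LC-AI-ctrl were LK-2 and RERF-LC-AI cells that carried a lentiviral ZsGreen vector, and LK2-maspin and LC-AI-maspin carried maspin together with ZsGreen. All 4 groups had therefore been infected and selected with blasticidin, and each was a stable population of surviving cells rather than a single clone. Within a line, maspin cannot be told apart from other differences between these populations. LK-2 cells were grown in RPMI1640 and RERF-LC-AI cells in EMEM. The sources used here do not say whether the 3 libraries of a group came from separate cultures, so that p-values measure only the spread between these libraries, which may be technical.

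In the canonical WNT pathway, a secreted WNT binds a Frizzled receptor and an LRP5 or LRP6 co-receptor, the destruction complex around AXIN is disabled, and β-catenin accumulates and activates genes together with TCF/LEF factors. Several of the genes switched on in this way encode inhibitors of the pathway itself, among them AXIN2, NKD1, NOTUM, APCDD1, RNF43, ZNRF3 and DKK1, so that the level of these feedback genes is commonly read as a sign of pathway activity. WNT5A and WNT11 are best known for signalling that does not pass through β-catenin.

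The libraries held 39802246 to 65454432 counts in genes with a symbol. Levels are given as CPM, which scales the counts of every library to a common normalised total. Maspin itself followed the labels: SERPINB5 was at 1.70 to 1.90 CPM in LK2-ctrl and 44.8 to 47.4 CPM in LK2-maspin, and at 0.154 to 0.291 CPM in LC-AI-ctrl and 470.1 to 550.5 CPM in LC-AI-maspin. Of 10 squamous markers, 5 reached a mean of 1 CPM in LK2-ctrl, where the list summed to 539.2 to 600.6 CPM and SOX2 made up most of it. In LC-AI-ctrl only DSG3, DSC3 and PKP1 of these 10 reached 1 CPM, and the list summed to 12.96 to 14.24 CPM. TP63, SOX2 and KRT6A were below 1 CPM there and had means of 1.18, 499.8 and 1.26 CPM in LK2-ctrl. The squamous keratins KRT5, KRT13, KRT14 and KRT17 were below 1 CPM in both. PKP1 went the other way, with a mean of 8.98 CPM in LC-AI-ctrl and 0.319 CPM in LK2-ctrl, as did KRT14 and KRT17 at their low levels. The 5 mesenchymal markers went in different directions: VIM (1693 to 1837 CPM), ZEB1 and FN1 were higher in LC-AI-ctrl, and CDH2 (316.1 to 356.3 CPM) and TWIST1 in LK2-ctrl.

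The 4 members that rose in LK2-maspin cells are shown first by sequence, as the 250 bases before the start of each gene from RefSeq (GRCh38.p14), written 5′ to 3′ on the strand of the gene. They were DKK1 (chr10:52314031-52314280, plus strand), WIF1 (chr12:65121306-65121555, minus strand), APCDD1 (chr18:10454385-10454634, plus strand) and SP5 (chr2:170715087-170715336, plus strand). Capitals mark letters that TCF/LEF factors are known to bind, searched on both strands in 4 forms: AACAAAG was searched first, ATCAAAG was searched next, and TACAAAG was searched together with TTCAAAG.

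DKK1: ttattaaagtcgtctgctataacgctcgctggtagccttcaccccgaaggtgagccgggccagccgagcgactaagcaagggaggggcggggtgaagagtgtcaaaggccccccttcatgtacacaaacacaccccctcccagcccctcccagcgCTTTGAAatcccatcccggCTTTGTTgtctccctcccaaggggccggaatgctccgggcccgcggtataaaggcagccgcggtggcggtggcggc

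WIF1: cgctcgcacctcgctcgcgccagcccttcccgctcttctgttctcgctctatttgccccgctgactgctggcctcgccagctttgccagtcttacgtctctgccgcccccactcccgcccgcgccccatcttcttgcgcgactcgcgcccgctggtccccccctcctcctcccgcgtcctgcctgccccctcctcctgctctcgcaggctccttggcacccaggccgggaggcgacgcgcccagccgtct

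APCDD1: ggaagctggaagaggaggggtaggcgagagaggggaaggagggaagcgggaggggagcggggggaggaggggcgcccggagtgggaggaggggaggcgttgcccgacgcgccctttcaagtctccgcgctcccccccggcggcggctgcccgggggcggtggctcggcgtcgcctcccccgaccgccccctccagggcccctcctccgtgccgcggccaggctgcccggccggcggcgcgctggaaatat

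SP5: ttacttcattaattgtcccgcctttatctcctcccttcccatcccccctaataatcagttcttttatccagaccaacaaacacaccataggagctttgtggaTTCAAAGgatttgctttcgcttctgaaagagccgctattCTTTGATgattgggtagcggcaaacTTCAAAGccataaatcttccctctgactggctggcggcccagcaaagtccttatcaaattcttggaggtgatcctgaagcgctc

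The SP5 window held 3 matches, which began 148, 109 and 84 bases before the start, and the DKK1 window held 2, at 95 and 76 bases. The WIF1 and APCDD1 windows held none of these letters. Of 35116 promoter windows of this length, 12% held at least 1 match, 1.21% at least 2 and 0.122% at least 3. For 28 of the 45 members a window was found, and those with a match were DKK1, SP5, TCF7 and TCF7L2. Over the 35 windows of these 28 members the share with a match was 11.4%, near that of all windows. A match is a string of letters and not a measured binding site.

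Ctrl cells of the lines were compared first, to describe which WNT genes each expressed. LK-2 cells expressed NKD1, RNF43, NOTUM, APCDD1, AXIN2 and SP5 at far higher levels than RERF-LC-AI cells, while DKK1, also a feedback gene, was far higher in RERF-LC-AI cells, and the Frizzled genes differed in both directions. Of the 45 members, 27 were higher in LK2-ctrl, 15 were higher in LC-AI-ctrl and 3 (WNT3A, WNT6 and SFRP2, with means of at most 0.425 CPM) did not pass the test, an adjusted p under 0.05 in edgeR's quasi-likelihood test. Of all genes tested, 61.9% passed it in this comparison, 31.4% as higher in LK2-ctrl and 30.5% as lower. By more than 32-fold, 14 members were higher in LK2-ctrl, where 1.74% of all genes were, and 2 were lower, where 1.22% of all genes were. Cell line, culture medium and the separately made count tables cannot be told apart in this comparison. Differences are log2 values, LK2-ctrl minus LC-AI-ctrl, on a scale where the median of all genes was 0.12 and moved to 0.34 with library size as the only scaling.

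**Figure D1:**
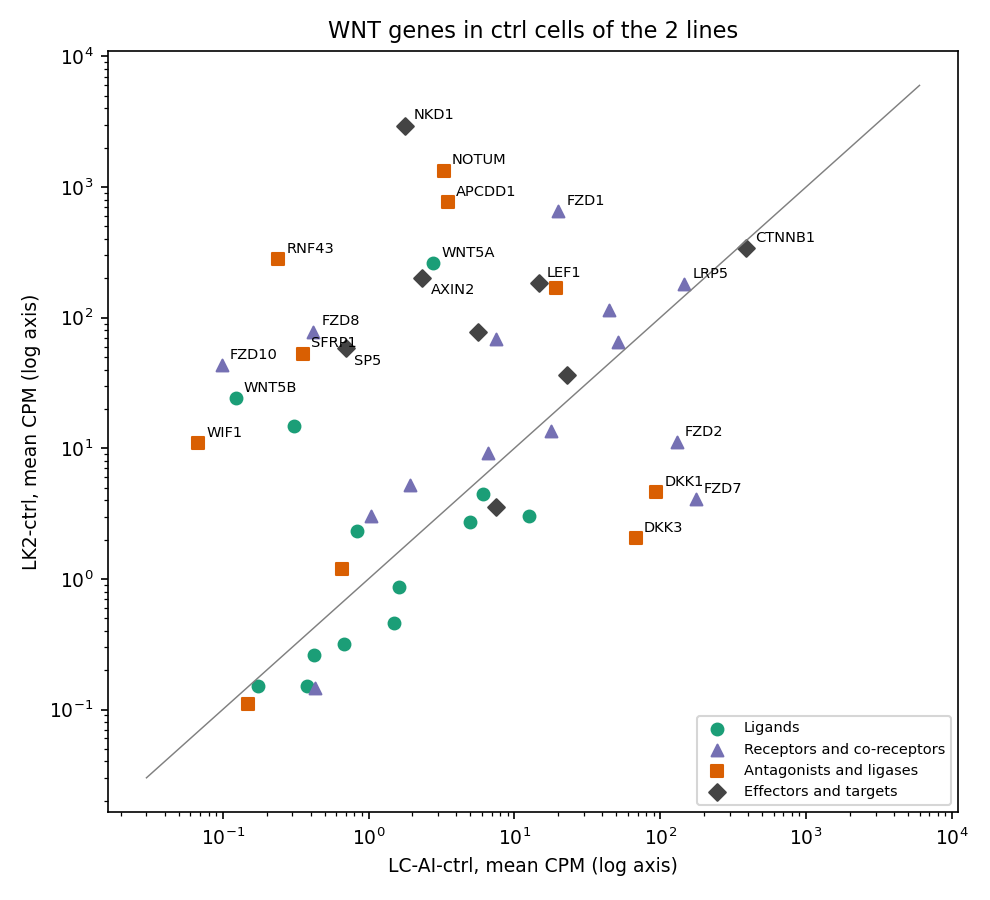
Mean CPM of the 45 members in LC-AI-ctrl (x axis) and LK2-ctrl (y axis), both on log axes, with n = 3 libraries each and 1 symbol per gene by role; the line marks equal levels. NKD1, NOTUM, APCDD1 and RNF43 stand far above the line, FZD7, FZD2, DKK1 and DKK3 far below it, and CTNNB1 close to it.

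Among the effectors and targets, NKD1, a Dishevelled-binding feedback inhibitor, was at 2576, 2925 and 3370 CPM in LK2-ctrl and at 1.96, 1.60 and 1.77 CPM in LC-AI-ctrl. AXIN2, a scaffold of the destruction complex, was at 198.1, 201.4 and 208.2 CPM and at 3.04, 1.88 and 2.07 CPM. The transcription factor gene SP5 was at 56.7, 59.4 and 58.1 CPM and at 0.603, 0.577 and 0.905 CPM. No library of one line reached the levels of the other in any of these 3 genes; over all genes, libraries did not overlap for 66.4%, 34.2% higher and 32.1% lower in LK2-ctrl. Their log2 differences were 10.71 (SE 0.16) for NKD1, 6.44 (SE 0.12) for AXIN2 and 6.39 (SE 0.13) for SP5, with edgeR adjusted p of 1.87e-21, 3.85e-20 and 2.30e-19.

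The 4 TCF/LEF genes did not follow one direction. LEF1 (185 ± 7.42 against 14.7 ± 1.1 CPM, SD, n = 3), TCF7 (78.0 ± 7.80 against 5.65 ± 0.333 CPM) and TCF7L2 (36.6 ± 0.819 against 22.8 ± 0.943 CPM) were higher in LK2-ctrl. TCF7L1, which is known mainly as a repressor, was lower there (3.56 ± 1.09 against 7.52 ± 0.518 CPM). The β-catenin gene CTNNB1 was at 341 ± 22.3 CPM in LK2-ctrl and 390 ± 7.78 CPM in LC-AI-ctrl, a log2 difference of -0.19 (SE 0.05, edgeR adjusted p = 0.00522) that turned to 0.03 with upper-quartile factors or library size alone.

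Of the antagonists known as feedback genes, NOTUM, RNF43, APCDD1 and ZNRF3 were higher in LK-2 cells, and DKK1 was lower. NOTUM, a secreted enzyme that removes the lipid from WNT ligands, was at 1166, 1374 and 1463 CPM in LK2-ctrl and 2.64, 3.31 and 3.88 CPM in LC-AI-ctrl. RNF43, a ligase that takes Frizzled receptors off the cell surface, was at 271.7, 267.3 and 297.3 CPM and at 0.229, 0.192 and 0.302 CPM. APCDD1, a membrane-bound inhibitor, was at 635.5, 782.7 and 868.7 CPM and at 3.70, 3.29 and 3.47 CPM. The ranges again lay far apart, with log2 differences of 8.67 for NOTUM, 10.17 for RNF43 and 7.77 for APCDD1. ZNRF3, the close relative of RNF43, differed less, at 167 ± 10.9 against 19.2 ± 2.39 CPM (log2 difference 3.12).

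The secreted WNT-binding proteins SFRP1 and WIF1 were also LK-2 genes. SFRP1 was at 53.0 ± 3.02 CPM in LK2-ctrl and 0.354 ± 0.0996 CPM in LC-AI-ctrl, and WIF1 at 10.9 ± 0.461 and 0.0677 ± 0.0215 CPM. The Dickkopf genes did not share a direction, with DKK1 and DKK3 lower in LK2-ctrl and DKK4 higher. DKK1, which blocks LRP5 and LRP6, was at 2.61, 4.15 and 7.04 CPM in LK2-ctrl and at 88.1, 100.3 and 94.2 CPM in LC-AI-ctrl, a log2 difference of -4.36 (SE 0.37, edgeR adjusted p = 1.57e-09). DKK3 was at 1.11 to 3.26 and 61.4 to 76.0 CPM (log2 difference -5.06). DKK4 stayed low, at 1.20 ± 0.356 and 0.662 ± 0.206 CPM, with a log2 difference of 0.84 (edgeR adjusted p = 0.0487). DKK2, which is not among the 45 members, was at 375.9, 500.7 and 573.9 CPM in LK2-ctrl and 0.0832, 0.0769 and 0.0862 CPM in LC-AI-ctrl.

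The Frizzled receptors split between the lines. FZD1 was at 731.2, 658.6 and 575.1 CPM in LK2-ctrl and 19.7, 21.3 and 18.8 CPM in LC-AI-ctrl. FZD7 was at 4.19, 3.89 and 4.17 CPM in LK2-ctrl and 174.0, 187.3 and 164.7 CPM in LC-AI-ctrl. FZD2 was at 11.7, 10.3 and 11.2 CPM against 129.6, 122.1 and 136.6 CPM. These 3 genes form one subgroup of the family by sequence, and reads shared between such paralogs could be split by the authors' counting, which is not described in the sources used here.

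FZD8 (78.2 ± 7.07 against 0.417 ± 0.194 CPM), FZD10 (43.4 ± 3.79 against 0.0985 ± 0.101 CPM) and FZD3 (68.2 ± 0.331 against 7.53 ± 0.236 CPM) were LK-2 receptors as well. FZD9 was at 3.01 ± 0.786 and 1.04 ± 0.0452 CPM. FZD4, FZD5 and FZD6 were within 1.5-fold of each other between the lines, at 9.17 and 6.64, 13.6 and 17.9, and 64.9 and 51.3 CPM on average. The co-receptor LRP5 was high in both (181 ± 3.12 and 146 ± 8.28 CPM), while LRP6 was higher in LK2-ctrl (115 ± 2.96 and 44.6 ± 1.44 CPM). Of the R-spondin receptors, LGR4 was at 5.21 ± 0.308 and 1.93 ± 0.224 CPM. LGR5 was near its detection limit, with 0 counts in LK2-ctrl replicate 1 and at most 0.665 CPM in any library. That 0 allows up to 0.0592 CPM by counting error for independent counts, and more where both reads of a pair count.

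The ligands were the role with the fewest genes in LK2-ctrl's favour, 4 of 13 against 7 higher in LC-AI-ctrl. WNT5A was at 268.9, 272.9 and 238.9 CPM in LK2-ctrl and 2.54, 3.21 and 2.61 CPM in LC-AI-ctrl. WNT5B (24.4 ± 0.982 against 0.123 ± 0.0406 CPM), WNT11 (14.8 ± 4.29 against 0.308 ± 0.147 CPM) and WNT9A (2.32 ± 0.0872 against 0.838 ± 0.203 CPM) were the others. WNT3, a canonical ligand, was at 3.03 ± 0.306 CPM in LK2-ctrl and 12.6 ± 0.219 CPM in LC-AI-ctrl. WNT7B (4.49 ± 0.494 and 6.08 ± 0.456 CPM), WNT2B (2.72 ± 0.777 and 4.95 ± 0.155 CPM), WNT4 (0.869 ± 0.245 and 1.61 ± 0.274 CPM) and WNT10B (0.459 ± 0.0999 and 1.5 ± 0.377 CPM) were also higher in LC-AI-ctrl. WNT3A, WNT6, WNT7A and WNT10A stayed below 1 CPM in every library. The calls of some members near the threshold were fragile. Those of WNT7B, WNT10A, FZD5 and LGR5 were lost with upper-quartile factors or library size alone, and that of DKK4 with RLE factors or DESeq2. Without LC-AI-ctrl replicate 1 the edgeR adjusted p was 0.374 for WNT10A, 0.206 for LGR5 and 0.0814 for DKK4. Of the 12 omissions of a single library, 6 ended the call of WNT10A, 6 that of LGR5 and 7 that of DKK4. Without LK2-ctrl replicate 3 or LC-AI-ctrl replicate 3 that of FZD4 was 0.0829 or 0.0957.

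Levels of different genes were compared per length, as CPM per kilobase of merged exons (GENCODE 44). Merged exons can be longer than any single transcript, so that close ranks are not firm. In LK2-ctrl the highest ligand was WNT5A at 36.4 CPM per kb, followed by WNT11 at 6.23 and WNT5B at 5.74. WNT5B was above WNT11 in CPM (24.4 and 14.8), and also per length in LK2-maspin (6.42 and 5.03 CPM per kb). The highest receptor was FZD1 at 95, and the highest antagonist was NOTUM at 458 with APCDD1 second at 128 CPM per kb. In LC-AI-ctrl, on the same scale, WNT3 led the ligands at 2.34, FZD7 (38.2) and FZD2 (34.3) the receptors, and DKK1 the antagonists at 42.4 CPM per kb. CTNNB1 led the effectors in LC-AI-ctrl at 33.1 CPM per kb, whereas NKD1 did in LK2-ctrl at 170. In all, 37 members reached a mean of 1 CPM in LK2-ctrl and 29 in LC-AI-ctrl, and 12 and 4 reached 100 CPM.

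**Figure D2:**
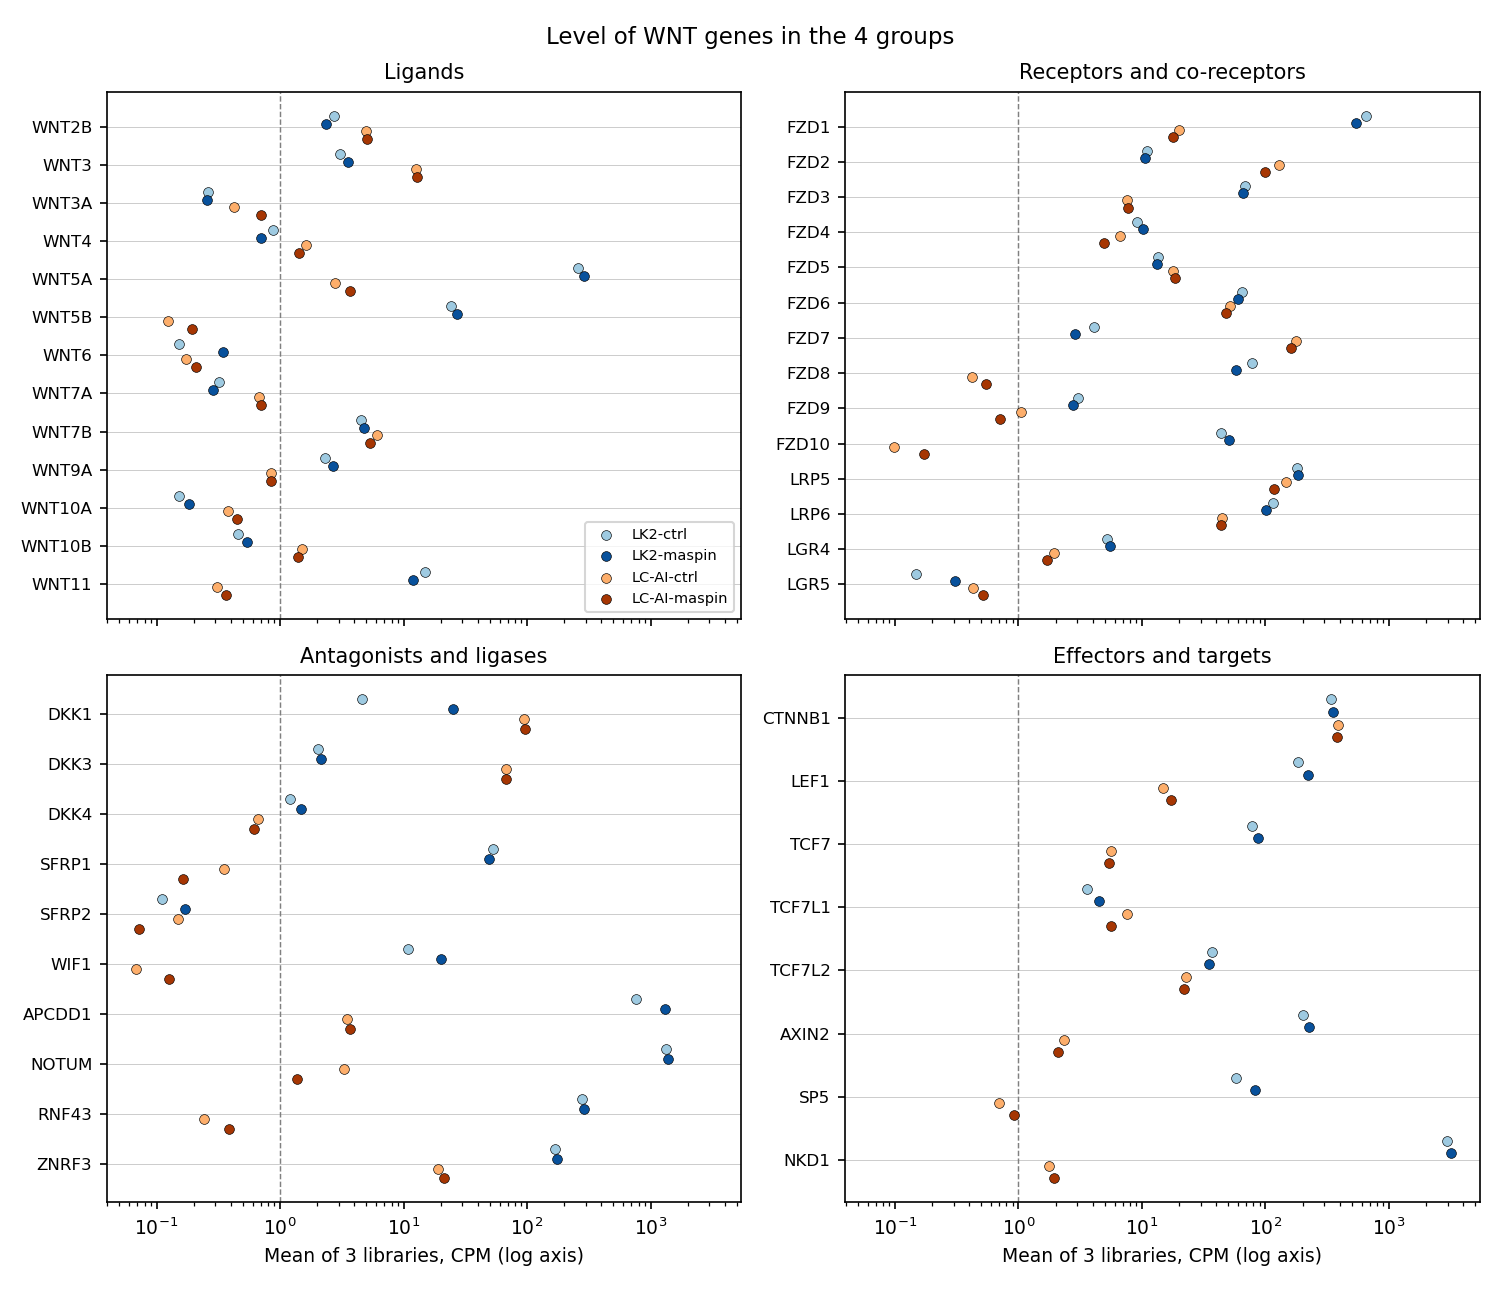
Mean CPM over 3 libraries (x axis, log) of each member in the 4 groups, in 1 panel per role; the dashed line is 1 CPM. The distance between the lines (blue against orange) is large for many genes, while ctrl and maspin of a line mostly lie side by side, except for genes such as DKK1 in LK-2 and NOTUM in RERF-LC-AI.

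The next question was which WNT genes differed with maspin in LK-2 cells. In this line 4 members rose and none was called lower, and each of the 4 was an antagonist or a target. DKK1, WIF1 and APCDD1 are extracellular or membrane inhibitors of the pathway, and SP5 is a transcription factor induced by β-catenin. Of 43 members tested, 4 were thus called (9.30%), where 0.533% of all genes tested were called, 0.373% as higher and 0.160% as lower. Because the list was made with earlier results of these data known, these shares are a description and not a test. With the replicate number as a block, 15 members were called, 10 higher and 5 lower. WNT10A and SFRP2 did not pass the filter on low counts. Without that block, none of 12 ligands and none of 14 receptors passed, although 3 ligands and 5 receptors had an unadjusted p under 0.05. With it, WNT5A and FZD10 were called higher and WNT11, FZD1, FZD7, FZD8 and LRP6 lower.

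DKK1 (chr10:52314281-52318042) was at 2.61, 4.15 and 7.04 CPM in LK2-ctrl and at 8.78, 28.2 and 38.5 CPM in LK2-maspin. The groups did not overlap, but the lowest LK2-maspin library was close to the highest LK2-ctrl library, and both first replicates were the lowest of their group. The log2 fold change was 2.45 (SE 0.46, edgeR adjusted p = 0.0421). Leaving out 1 library ended the call in 4 cases: the adjusted p was 0.108 without LK2-ctrl replicate 1, 0.339 without LK2-ctrl replicate 2, 0.205 without LK2-maspin replicate 2 and 0.105 without LK2-maspin replicate 3. Scaling by upper-quartile factors gave 0.0547, scaling by library size alone 0.0597, and 0.0506 came from a filter of at least 10 counts in every library.

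WIF1 (chr12:65050626-65121305), whose product binds WNT ligands outside the cell, was at 10.4, 11.1 and 11.3 CPM in LK2-ctrl and 18.5, 18.4 and 23.8 CPM in LK2-maspin. The groups were well apart, and the log2 fold change was 0.89 (SE 0.12, edgeR adjusted p = 0.00382). Without LK2-ctrl replicate 2 the adjusted p was 0.0506.

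APCDD1 (chr18:10454635-10489949) was among the most abundant members, at 635.5, 782.7 and 868.7 CPM in LK2-ctrl and 1077, 1415 and 1460 CPM in LK2-maspin. Every LK2-maspin library lay above every LK2-ctrl library, and the log2 fold change was 0.79 (SE 0.13, edgeR adjusted p = 0.0159). The adjusted p was 0.134, 0.132 and 0.0563 without LK2-ctrl replicate 2, LK2-maspin replicate 2 and LK2-maspin replicate 3.

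SP5 (chr2:170715337-170718078) had the narrowest spread of the 4, at 56.7, 59.4 and 58.1 CPM in LK2-ctrl and 77.8, 88.3 and 82.9 CPM in LK2-maspin. The groups did not overlap, with a log2 fold change of 0.52 (SE 0.07, edgeR adjusted p = 0.00346). Without LK2-maspin replicate 2 the adjusted p was 0.0525.

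Other feedback genes did not pass the test. NOTUM was at 1166 to 1463 CPM in LK2-ctrl and 1197 to 1486 CPM in LK2-maspin (log2 fold change 0.05), RNF43 at 279 ± 16.2 and 291 ± 17.3 CPM (0.06), ZNRF3 at 167 ± 10.9 and 175 ± 15.5 CPM (0.07) and NKD1 at 2576 to 3370 and 2820 to 3430 CPM (0.10). Each of these log2 fold changes was near or under its SE of 0.07 to 0.10, and ctrl and maspin libraries overlapped. By replicate number, each of these genes was higher in LK2-maspin than in the LK2-ctrl library of the same number. AXIN2 was at 198.1, 201.4 and 208.2 CPM and then 214.8, 223.6 and 232.3 CPM, without overlap, with a log2 fold change of 0.14 (SE 0.06, edgeR adjusted p = 0.706). LEF1 was at 181.6, 193.4 and 179.7 CPM and then 205.0, 235.4 and 227.7 CPM, also without overlap (0.27, SE 0.06, edgeR adjusted p = 0.147). Neither passed the test. TCF7 (0.16), TCF7L1 (0.34), TCF7L2 (-0.07) and CTNNB1 (0.06) did not pass it either, nor did DKK3 (0.07), DKK4 (0.34) and SFRP1 (-0.10). With the replicate number as a block, LEF1, TCF7, AXIN2 and NKD1 were called higher, and NOTUM, RNF43 and ZNRF3 were not.

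Among the receptors, FZD8 came nearest to the threshold. It was at 72.9, 86.2 and 75.4 CPM in LK2-ctrl and 50.3, 59.2 and 62.3 CPM in LK2-maspin, without overlap, with a log2 fold change of -0.45 (SE 0.09, edgeR adjusted p = 0.0583). With edgeR's likelihood ratio test the adjusted p was 0.00207, with DESeq2 0.00126 and with no filter 0.0149, and it was 0.0455 and 0.0460 without LK2-ctrl replicate 1 or 3. FZD7 was at 4.19, 3.89 and 4.17 CPM and then 2.49, 2.82 and 3.35 CPM (-0.50, SE 0.15, edgeR adjusted p = 0.417), and LRP6 at 115 ± 2.96 and 102 ± 3.01 CPM (-0.18, SE 0.06, edgeR adjusted p = 0.465). FZD1 was at 655 ± 78.1 and 546 ± 72.8 CPM (-0.26), and FZD10 at 43.4 ± 3.79 and 50.7 ± 2.73 CPM (0.23). LRP5 was at 181 ± 3.12 and 182 ± 7 CPM (0.01, SE 0.06). The other receptors had log2 fold changes between -0.12 and 0.15, apart from LGR5 (1.06, SE 0.75).

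The ligands ranged from -0.30 (WNT11, SE 0.21) to 1.20 (WNT6, SE 0.45), the latter at a mean of 0.151 and 0.347 CPM. WNT5A, the most abundant ligand, was at 260 ± 18.6 CPM in LK2-ctrl and 289 ± 3.19 CPM in LK2-maspin (0.15, SE 0.06, edgeR adjusted p = 0.615), and WNT5B at 24.4 ± 0.982 and 27.2 ± 0.0858 CPM (0.16, SE 0.07, edgeR adjusted p = 0.763). Over the 43 members tested the median log2 fold change was 0.07, against 0.00 over all genes. Libraries of the groups did not overlap for 13 members, 10 higher and 3 lower in LK2-maspin, where 11.6% of all genes did not overlap, 6.10% higher and 5.45% lower.

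Members lowest or highest in replicate number 1 of both LK-2 groups were counted, and the other replicate numbers were not counted in this way. Of the 37 members at 1 CPM or more, 13 (35.1%) were lowest in replicate 1 of both LK2-ctrl and LK2-maspin, among them DKK1, APCDD1, NOTUM, NKD1, SP5 and AXIN2, and 7 (18.9%) were highest there, among them WNT11 and FZD1. Over 17616 genes at that level the shares were 19.9% lowest and 19.9% highest. The summed squamous markers were 539.2 to 600.6 CPM in LK2-ctrl and 453.4 to 503.1 CPM in LK2-maspin. Most of that sum was SOX2, whose mean was 499.8 and then 397.4 CPM, without overlap. KRT5 went the other way, at 0.607 to 0.948 and then 5.20 to 8.40 CPM. KRT6A, DSG3 and KRT13 were also higher in LK2-maspin without overlap, and the other squamous markers overlapped. The summed epithelial markers were 1702 to 1772 and then 1898 to 1969 CPM. The part of replicate number 1 or of these markers in the results above was not tested.

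**Figure D3:**
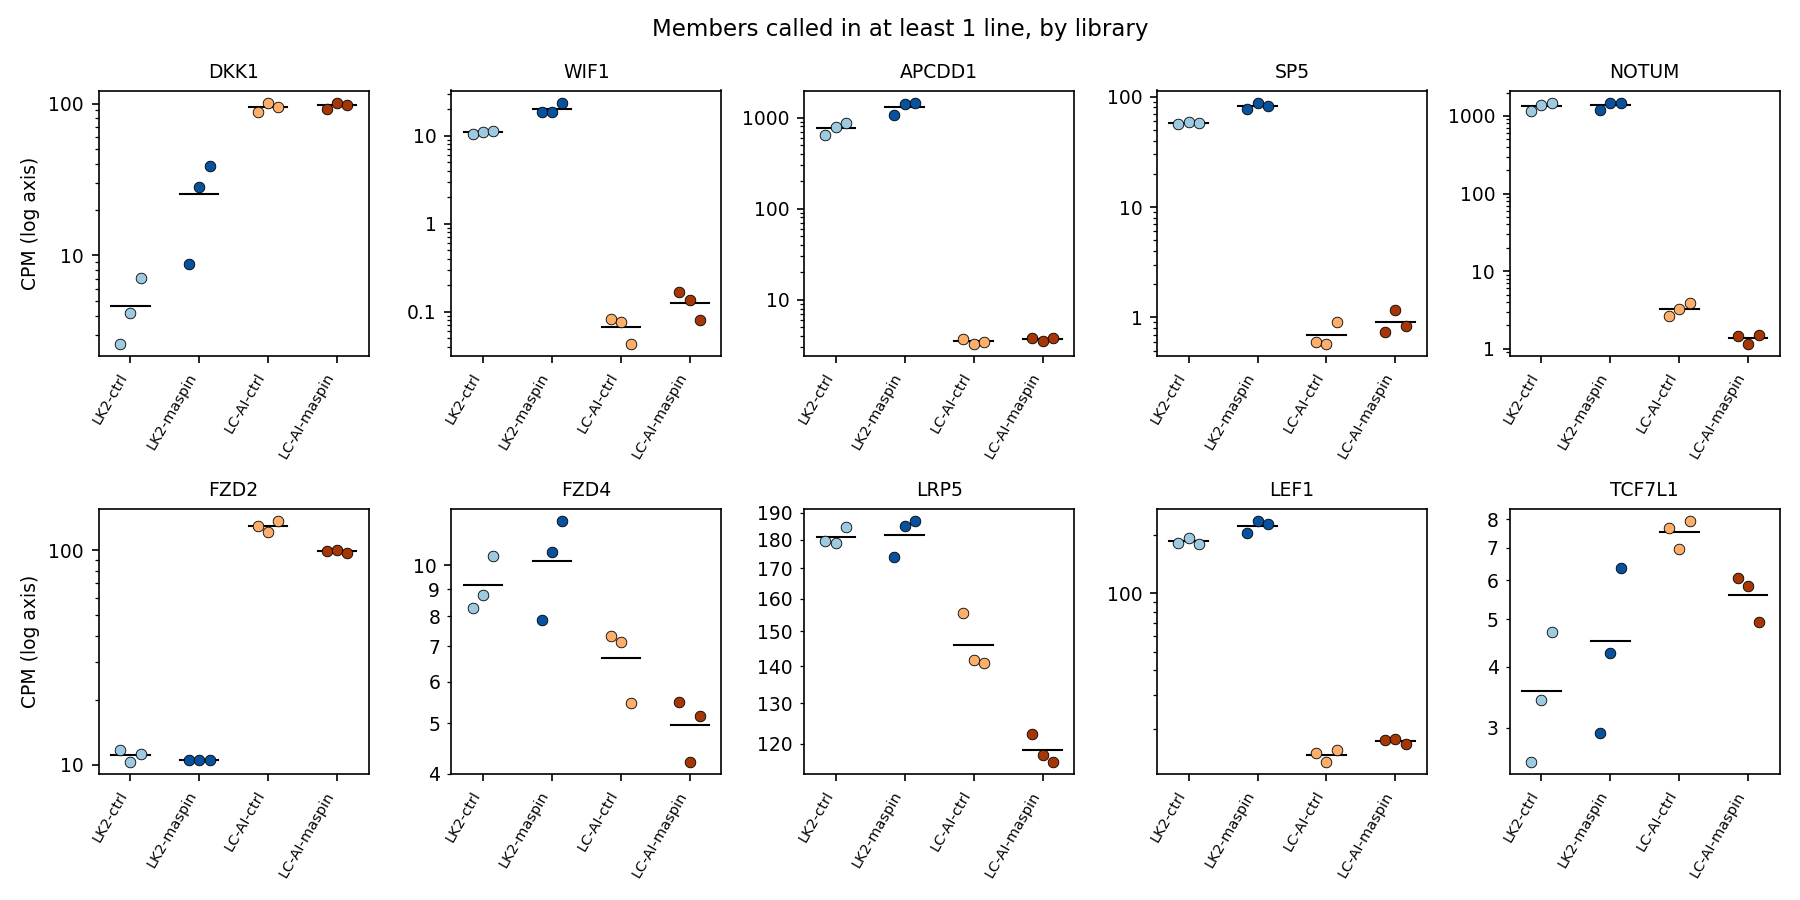
CPM in each library (log axis, scale differs between panels) of the 10 members called in at least 1 line; each point is a library, replicates 1 to 3 from left to right, and bars are means of 3. DKK1, WIF1, APCDD1 and SP5 are higher in LK2-maspin than in LK2-ctrl without overlap, and NOTUM, FZD2, LRP5 and TCF7L1 are lower in LC-AI-maspin than in LC-AI-ctrl without overlap.

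In RERF-LC-AI cells different members were called. NOTUM, TCF7L1 and 3 of 13 receptors tested (FZD2, LRP5 and FZD4) fell with maspin, LEF1 rose, and DKK1, the antagonist with the highest level per length in this line, did not pass the test. Of 41 members tested, 6 were called (14.6%), 1 higher and 5 lower, where 10.5% of all genes tested were called, 4.01% as higher and 6.53% as lower. This share is near that of all genes. WNT5B, FZD10, SFRP2 and WIF1 did not pass the filter on low counts, WIF1 with at most 0.166 CPM in any library of this line.

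NOTUM (chr17:81952507-81961840) was at 2.64, 3.31 and 3.88 CPM in LC-AI-ctrl and at 1.45, 1.16 and 1.52 CPM in LC-AI-maspin. The groups did not overlap, and NOTUM fell by 1.25 on the log2 scale (SE 0.19, edgeR adjusted p = 2.16e-05). Its level was thus low in both groups, far under the 1166 CPM of the lowest LK2-ctrl library.

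FZD2 (chr17:44557484-44561262), one of the leading receptors of this line, was at 129.6, 122.1 and 136.6 CPM in LC-AI-ctrl and 98.9, 100.2 and 97.0 CPM in LC-AI-maspin. It fell by 0.39 on the log2 scale (SE 0.05, edgeR adjusted p = 1.85e-06). LRP5 (chr11:68312591-68449275) was at 155.6, 141.7 and 140.8 CPM and then 122.4, 117.3 and 115.6 CPM, and fell by 0.30 (SE 0.05, edgeR adjusted p = 8.06e-05). Neither gene overlapped between the groups, and both kept their call with each library left out.

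FZD4 (chr11:86945679-86955395) was at 7.34, 7.13 and 5.45 CPM in LC-AI-ctrl and 5.48, 4.21 and 5.17 CPM in LC-AI-maspin. The groups overlapped by a narrow margin, and the log2 fold change was -0.43 (SE 0.13, edgeR adjusted p = 0.0368). The adjusted p was 0.140, 0.123, 0.209 and 0.0720 without LC-AI-ctrl replicates 1 or 2 or LC-AI-maspin replicates 2 or 3, and 0.0673 and 0.0994 with upper-quartile factors and library size alone.

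TCF7L1 (chr2:85133392-85310387) was at 7.69, 6.94 and 7.93 CPM in LC-AI-ctrl and 6.06, 5.86 and 4.92 CPM in LC-AI-maspin, without overlap. The log2 fold change was -0.42 (SE 0.12, edgeR adjusted p = 0.0157), and the adjusted p was 0.0876 without LC-AI-ctrl replicate 3 and 0.138 without LC-AI-maspin replicate 3. LEF1 (chr4:108047545-108168956), the only member called higher, was at 15.1, 13.4 and 15.5 CPM and then 17.6, 17.8 and 16.7 CPM (log2 fold change 0.24, SE 0.08, edgeR adjusted p = 0.0486). The groups did not overlap, but leaving out any 1 of the 6 libraries ended the call, with adjusted p from 0.0509 to 0.221. In a fit of all 12 libraries, whose spread is shared between the lines, the adjusted p of FZD4, TCF7L1 and LEF1 was 0.184, 0.378 and 0.0765.

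DKK1 was at 88.1, 100.3 and 94.2 CPM in LC-AI-ctrl and 91.7, 101.5 and 98.2 CPM in LC-AI-maspin, with overlapping ranges (0.05, SE 0.05, edgeR adjusted p = 0.708). DKK3 was at 67.8 ± 7.46 and 67.7 ± 1.28 CPM (0.00). Among low genes, SFRP1 was at 0.458, 0.346 and 0.259 CPM and then 0.166, 0.168 and 0.161 CPM (-1.09, SE 0.49, edgeR adjusted p = 0.183), without overlap, and the adjusted p was 0.0263 in the fit of 12 libraries. APCDD1 (0.09), ZNRF3 (0.14), RNF43 (0.69, SE 0.45) and DKK4 (-0.10) did not pass the test.

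FZD7, the receptor with the highest level per length in this line, was at 175 ± 11.3 and 161 ± 21.3 CPM (-0.12, SE 0.06, edgeR adjusted p = 0.309, or 0.0330 without LC-AI-maspin replicate 2). FZD6 was at 51.3 ± 1.47 and 47.7 ± 0.629 CPM (-0.10), FZD1 at 19.9 ± 1.24 and 17.8 ± 2.93 CPM (-0.16), FZD5 at 17.9 ± 0.969 and 18.7 ± 1.02 CPM (0.07) and LRP6 at 44.6 ± 1.44 and 44 ± 1.83 CPM (-0.02). FZD3 was at 7.53 ± 0.236 and 7.72 ± 0.389 CPM (0.04), LGR4 at 1.93 ± 0.224 and 1.70 ± 0.169 CPM (-0.17). FZD9 was at 1.04 ± 0.0452 and 0.705 ± 0.348 CPM (-0.55, SE 0.30). FZD8 (0.38, SE 0.40) and LGR5 (0.27, SE 0.39) were below 1 CPM in every library of this line. None of these receptors passed the test. No ligand of 12 tested passed either, with log2 fold changes from -0.19 (WNT4) to 0.72 (WNT3A, SE 0.36), and WNT3 was at 12.6 ± 0.219 and 12.8 ± 0.974 CPM. AXIN2 (-0.15, SE 0.19), SP5 (0.41, SE 0.29), NKD1 (0.12, SE 0.20), TCF7 (-0.06), TCF7L2 (-0.05) and CTNNB1 (-0.02) did not pass it.

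Over the 41 members the median log2 fold change was 0.00, against 0.01 over all genes. Libraries did not overlap for 10 members, 3 higher and 7 lower, where 25.0% of all genes did not overlap, 11.8% higher and 13.3% lower. The epithelial keratins moved in the same cells: the 5 epithelial markers summed to 2101 to 2232 CPM in LC-AI-ctrl and 1538 to 1660 CPM in LC-AI-maspin, and the part of this in the results was not tested.

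**Figure D4:**
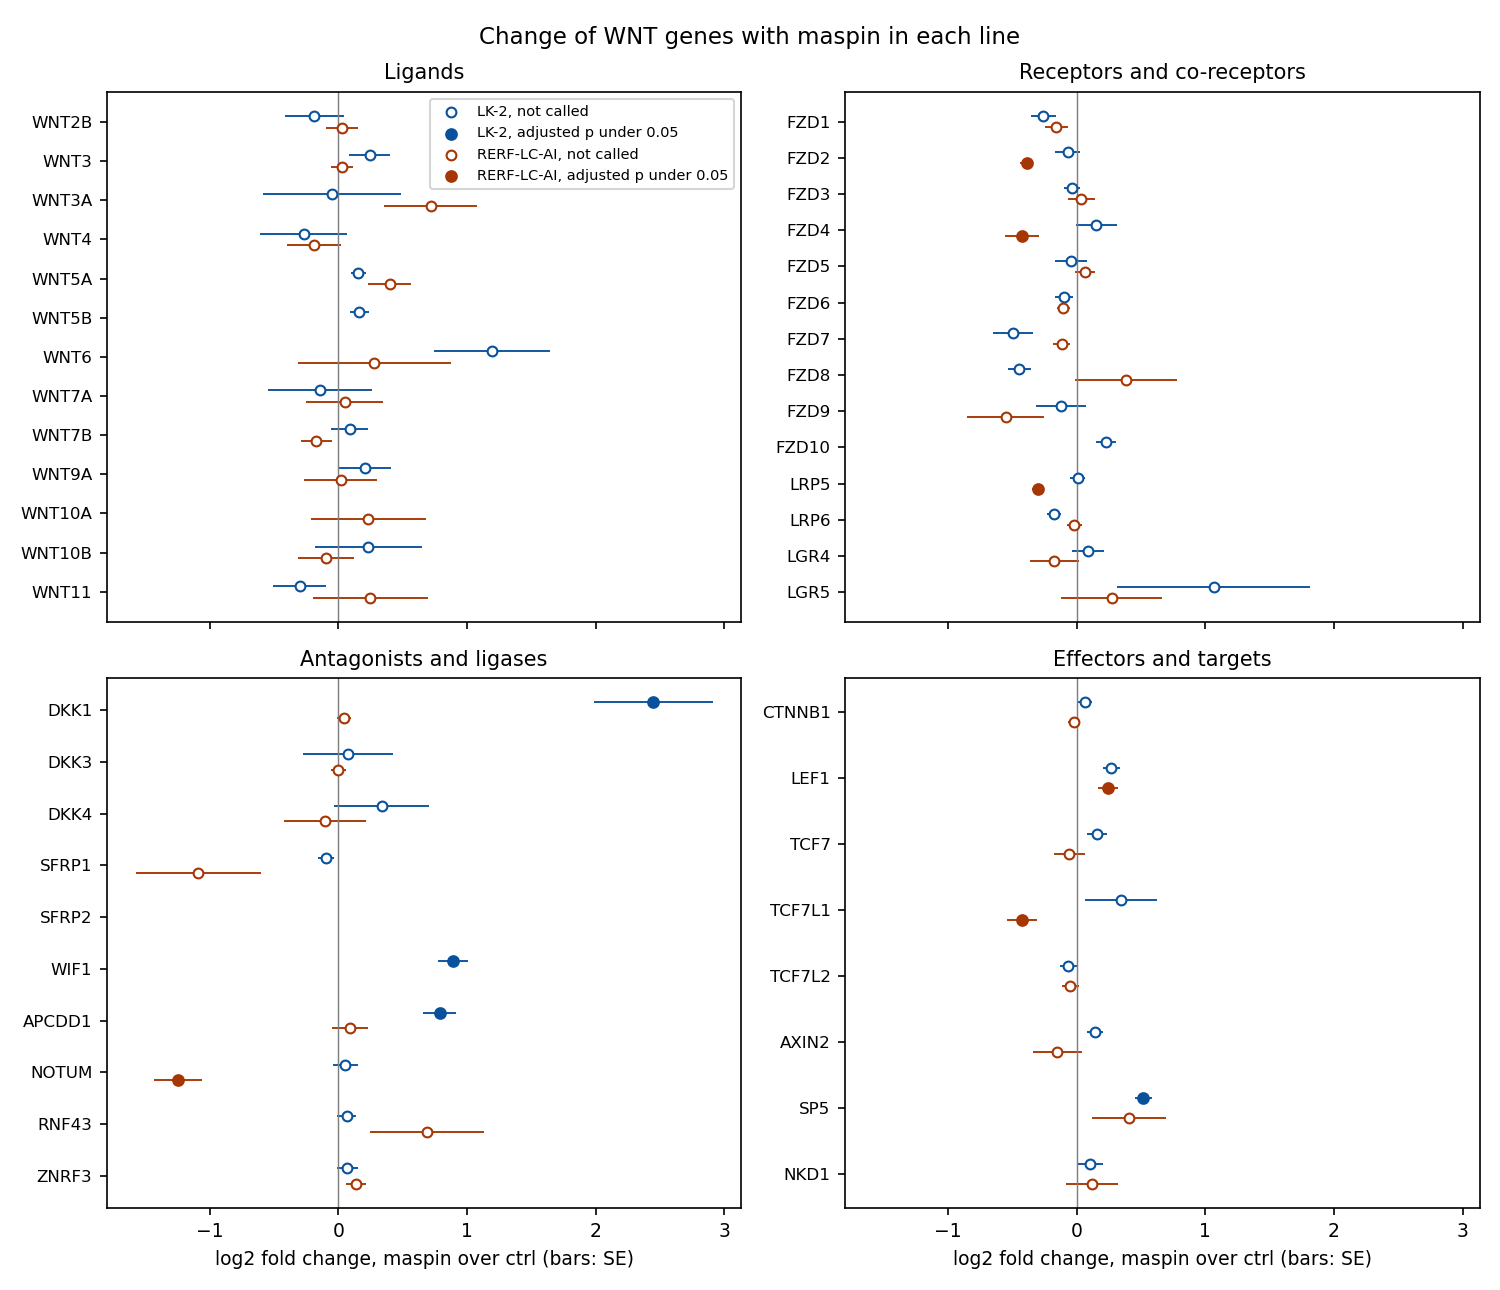
Log2 fold change, maspin over ctrl (x axis, bars are SE, n = 3 libraries a group), of the members tested in LK-2 (blue) and RERF-LC-AI (brown), in 1 panel per role; filled points have an adjusted p under 0.05, and a member without a point was not tested. DKK1 in LK-2 at 2.45 and NOTUM in RERF-LC-AI at -1.25 lie farthest out among the filled points.

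Whether the effect of maspin differed between the lines was tested with an interaction term in a fit of all 12 libraries. SERPINB5 was at 44.8 to 47.4 CPM in LK2-maspin and 470.1 to 550.5 CPM in LC-AI-maspin. The paper found maspin in nucleus and cytoplasm of LK2-maspin cells and mainly in the cytoplasm of LC-AI-maspin cells. Cell line, culture medium, count table, stable population, and level and location of maspin cannot be told apart in this term. Of the 45 members 2 passed, both antagonists and both with the larger value in LK-2, where 1.76% of all genes passed, 1.35% with the larger value in LK-2 and 0.402% with the smaller. For DKK1 the difference between the effects was 2.41 on the log2 scale (SE 0.47, edgeR adjusted p = 0.00833), from a rise in LK-2 cells at a low level and overlapping groups in RERF-LC-AI cells at a high level. After the rise, the highest LK2-maspin library, at 38.5 CPM, was still below the lowest LC-AI-ctrl library at 88.1 CPM. For NOTUM the difference was 1.31 (SE 0.19, edgeR adjusted p = 8.29e-04), from overlapping groups in LK-2 cells and a fall in RERF-LC-AI cells.

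The differences of APCDD1 (0.70, SE 0.18, edgeR adjusted p = 0.0535), LRP5 (0.31, SE 0.08, edgeR adjusted p = 0.0614), SFRP1 (0.996, SE 0.28, edgeR adjusted p = 0.0917) and FZD2 (0.32, SE 0.09, edgeR adjusted p = 0.106) did not pass. Those of APCDD1 and LRP5 passed with the likelihood ratio test, RLE factors or DESeq2, where the adjusted p was 0.00216 and 0.00234, and without LK2-ctrl replicate 3, at 0.00424 and 0.0178, or LK2-maspin replicate 1, at 0.00414 and 0.0424. For SP5 (0.10, SE 0.22), TCF7L1 (0.77, SE 0.31), FZD4 (0.58, SE 0.22) and LEF1 (0.03, SE 0.10) the calls in single lines were likewise not shown to differ between the lines. WIF1 was too low in RERF-LC-AI cells to be informative (0.05, SE 0.92).

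To set the members beside the rest of the pathway, 84 other WNT pathway genes were counted, a list also made with earlier results known. In LK-2 cells 2 of 77 tested passed (2.60%), both higher, where 0.533% of all genes did. They were BMP4, a growth factor gene and known WNT target (44.6, 48.0 and 48.2 CPM in LK2-ctrl, 63.0, 72.8 and 65.7 CPM in LK2-maspin, log2 fold change 0.52, edgeR adjusted p = 0.00687), and SOX9, a transcription factor gene (7.58, 6.14 and 5.92 CPM and then 11.5, 13.9 and 11.04 CPM, 0.89, edgeR adjusted p = 0.00844). None of the 20 genes of the cytoplasmic relay and destruction complex passed, and their log2 fold changes lay between -0.15 and 0.09.

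In RERF-LC-AI cells 16 of 75 passed (21.3%), 5 higher and 11 lower, where 10.5% of all genes passed, 4.01% as higher and 6.53% as lower. The 10 with the smallest adjusted p, from 4.81e-09 to 0.0152, were as follows. PRICKLE1, of the planar polarity branch, was at 19.8, 19.1 and 20.3 CPM in LC-AI-ctrl and 10.8, 10.4 and 11.1 CPM in LC-AI-maspin, and fell by 0.87 on the log2 scale. TLE1, a Groucho-type co-repressor, was at 71.7, 74.5 and 68.8 CPM and then 50.3, 52.4 and 47.7 CPM, and fell by 0.51. SOX9 fell by 0.53, CTNNBIP1 by 0.31, JUN by 0.29, CCND1 by 0.28, BCL9L by 0.27 and PTK7 by 0.23, while RYK rose by 0.26 and MYC by 0.18. By role, 6 of 12 other targets, 4 of 12 other receptors and polarity genes, 3 of 14 nuclear cofactors, 2 of 20 relay genes and 1 of 8 other ligands passed.

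SOX9 was thus called in both lines but in opposite directions, rising in LK-2 and falling in RERF-LC-AI cells, and the difference between its effects was 1.42 (SE 0.22, edgeR adjusted p = 0.001). The interaction also passed for PRICKLE1 (0.99), BMP4 (0.80), TLE1 (0.45) and CD44 (0.41), 5 of 79 tested, all with the larger value in LK-2.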

How the data were processed

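The 12 RNA-seq libraries, from the LK-2 and RERF-LC-AI lines, fell into 4 groups of 3 by their sample titles. Per the labels, the submitters' processing notes and the study's methods name Trimmomatic (0.39) for trimming, BWA (0.7.17) for mapping to GRCh38.p13, SAMtools (1.12 for one line and 1.10 for the other) and edgeR (3.16.5) for TMM normalization; BWA does not split reads over exon junctions, and such reads may be clipped or lost; for the counting step, the program is not given in the sources here. Deposited by the authors were 2 tables, 1 per line, with raw counts per gene and, beside them, normalized signal columns, which were not used. Only 23.9 to 26.2% of counts from 1 to 9 were odd, so that most counts hold both reads of a pair. Entries without a symbol, 646 for each line and 0.292 to 0.416% of counts, were left out of library sizes and tests.

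Tests on counts used edgeR's quasi-likelihood approach (glmQLFTest, edgeR 4.0.16, R 4.3.3) with TMM factors and filterByExpr defaults (minimum count 10, minimum total 15) within each line, and with Benjamini-Hochberg adjustment over all genes tested at a threshold of 0.05. The interaction and the ctrl lines were tested in a fit of 12 libraries, whose TMM factors also gave the CPM values. The SE is the log2 fold change divided by the square root of F. Biological coefficients of variation were 11.7% in LK-2, 6.43% in RERF-LC-AI and 9.57% over 12 libraries, and chi-square per degree of freedom between replicates was above 1, so none was a copy. Scripts were tested on simulated counts. Every member was accounted for, those called in a line or the interaction in full, the rest at 1 CPM or more by level; of other pathway genes, up to 10 per line with the smallest adjusted p were named. Members and lists were chosen with earlier results of these data known. Alternatives were edgeR's likelihood ratio test, DESeq2 (1.42.0), other size factors, other filters, a replicate block, 1 fit of 12 libraries, a stricter threshold of 0.01 and the omission of single libraries. Counts cannot separate isoforms, such as those of LEF1 and TCF7, and whether counting used strand is not stated.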

Additional observations from a re-analysis of the deposited data

Results flagged for a closer look

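The effect of maspin differed between the lines, by the interaction term, for 2 members. Cell line, culture medium, count table, stable population, and level and location of maspin cannot be told apart in this term. For DKK1 the log2 effect in LK-2 minus that in RERF-LC-AI was 2.41 (SE 0.47, edgeR adjusted p = 0.00833; adjusted p from 3.43e-06 to 0.0378 with 1 library left out), although the call of DKK1 within LK-2 itself was lost without any of 4 single libraries. For NOTUM it was 1.31 (SE 0.19, edgeR adjusted p = 8.29e-04; adjusted p from 4.59e-05 to 0.00553 with 1 library left out), at 1.16 to 3.88 CPM in RERF-LC-AI cells and 1166 to 1486 CPM in LK-2 cells. With groups of 3 libraries, single outlying libraries were not tested for.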

How the results depend on the processing

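Of the members called under any setting, only CTNNB1 changed direction, between the ctrl lines, at 0.0330 under upper-quartile factors and at 0.0314 when scaled by library size only; the cause was not tested. Of 43 members in LK-2, 2 passed at an adjusted p under 0.01 and 1 to 5 with a library left out (1 without LK2-ctrl replicate 2 or LK2-maspin replicate 2, 2 without LK2-maspin replicate 3). In RERF-LC-AI 3 passed at 0.01 and 3 to 5 with a library left out (3 without LC-AI-maspin replicate 3). In the interaction 4 members passed with the likelihood ratio test, RLE factors or no filter, 5 with DESeq2, and 2 to 6 with a library left out (6 without LK2-ctrl replicate 3). Of the other pathway genes 0 to 2 passed in LK-2 with a library left out; in RERF-LC-AI 6 passed with 12 libraries in 1 fit, 9 at 0.01 and 10 to 16 with a library left out.

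Replicate numbers shared by ctrl and maspin libraries were taken as names only: over all genes tested, deviations of equally numbered libraries correlated at 0.3, 0.0415 and 0.323 in LK-2 and 0.111, 0.126 and 0.0439 in RERF-LC-AI, not all above 0.1. Each library correlated best with its own number, and over genes with a mean log2 level above 3 all 6 correlations were above 0.1, at 0.749, 0.116 and 0.753 in LK-2 and 0.361, 0.39 and 0.196 in RERF-LC-AI, so that a pairing is a hint from the data and is not settled. With the replicate block 15 members (10 higher, 5 lower; WNT5A, FZD10, LEF1, TCF7, AXIN2 and NKD1 were added as higher and WNT11, FZD1, FZD7, FZD8 and LRP6 as lower) and 11 other pathway genes passed in LK-2, 7 members in RERF-LC-AI, and 9 members (7 higher, 2 lower) in the interaction.

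Over all genes, LK-2 calls were 140, and 314 with the likelihood ratio test, 280 with DESeq2, 251 with 12 libraries in 1 fit, 1190 with the block, 70 at 0.01 and 50 to 199 with a library left out. RERF-LC-AI calls were 2655, and 1163, 4081, 1642 and 1764 to 2594 in the last 4 of these. Interaction calls were 494, and 884, 981, 2273 with the block, 196 at 0.01 and 275 to 754. The share of higher calls in RERF-LC-AI was 38%, 48.5% under upper-quartile factors and 52.2% when scaled by library size only; between the ctrl lines it was 50.7, 61.9 and 61.8%, and in the interaction 77.1, 67.3 and 66.9%. Members below 1 CPM are limited by depth.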

Other observations

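Variation between replicates differed among members at 10 CPM or more. Their median coefficient of variation was 6.53% in LK2-ctrl, 6.34% in LK2-maspin, 5.64% in LC-AI-ctrl and 4.65% in LC-AI-maspin, against 7.22, 5.51, 4.34 and 4.21% over all genes at that level. DKK1 in LK2-maspin had the highest value, 60%, followed within its own line by WNT11 in LK2-ctrl at 29%. DKK1 was near 5% to 6% in RERF-LC-AI cells, with SDs of 6.10 and 4.99 CPM around means of 94.2 and 97.1 CPM.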
